A study of Mus musculus with 8 samples.

Results

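Integrins are the transmembrane receptors by which a cell holds on to matrix proteins and to other cells. Expression of 10 integrin subunit genes (Itgam, Itgb2, Itgal, Itga4, Itga5, Itga6, Itgb1, Itgb5, Itgav and Itgb8) was examined. The genes were matched by gene symbol, and the list was chosen with earlier results of these data known, so it is not a set picked blind. They are 10 of the 54532 genes listed for the PTS + RS and RS libraries, and all were also listed for the RGFP109 and NaCl libraries. Every member passed the filter on low counts, so that none was lost from the tests.

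Whole tissue RNA-seq had been performed on C57BL/6 mouse brain at Day 21, with 4 groups of 2 libraries. The study used male mice, of about 3 months in its behavioural tests, and gives no age for the sequenced mice in particular. The PTS + RS group had photothrombotic stroke, an infarct made by lighting a dye through the skull, plus restraint stress. The RS group had restraint stress without stroke, and these 4 libraries are labelled cortex. RGFP109 was used by the study to inhibit the histone deacetylase HDAC3, and is described there as selective for HDAC1 and HDAC3. It was given to mice with PTS + RS at 60 mg/kg once daily for 2 weeks by the labels (a scheme of the experiment has 21 days). The NaCl group (called vehicle by the study) also had PTS + RS. In these 4 libraries replicate 1 is labelled cortex and replicate 2 amygdala, so that all 8 libraries share restraint stress and 6 share stroke. Whether a library held a single mouse or several is not stated, and p-values here measure only the spread between libraries.

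Each integrin is a pair of an alpha and a beta chain, and the pair decides what is bound. The beta 2 chain (Itgb2, CD18) is a leukocyte chain, carried in the brain by microglia. With alpha M (Itgam, CD11b) it forms complement receptor 3, which takes up material tagged by complement, and with alpha L (Itgal) it forms LFA-1, which binds ICAM molecules. The beta 1 chain (Itgb1) is used by most tissue cells and pairs with alpha 4 (Itga4), which binds VCAM-1 and fibronectin, with alpha 5 (Itga5), the main fibronectin receptor, and with alpha 6 (Itga6), a laminin receptor of vessels and glia. Alpha v (Itgav) pairs with beta 5 (Itgb5), a vitronectin receptor that also serves in the uptake of dying cells, and with beta 8 (Itgb8), which releases active TGF-beta from its latent complex.

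On GRCm38, Itgam (ENSMUSG00000030786) lies on the plus strand of chromosome 7 from 128062640 to 128118491, and Itgb2 (ENSMUSG00000000290) on the plus strand of chromosome 10 from 77530252 to 77565708. Itgb5 (ENSMUSG00000022817) lies on the plus strand of chromosome 16 from 33829665 to 33949338, and Itga6 (ENSMUSG00000027111) on the plus strand of chromosome 2 from 71745616 to 71858416. Itga4 (ENSMUSG00000027009) and Itgav (ENSMUSG00000027087) also lie on chromosome 2. In GENCODE M21, Gm49368 lies over Itgam on the same strand, from 128062683 to 128128160, and shares 3450 of the 5024 exonic bases of Itgam. It was listed with 0 counts in all 4 libraries of PTS + RS and RS. How reads in shared exons were assigned is not given in the sources used here, so the level of Itgam per length is uncertain and may be too low, whereas its comparison between libraries rests on the same bases throughout. Itga4 shares 1124 exonic bases with Cerkl on the other strand, which held between 28 and 51 counts, and the strand setting of the counting is not given either.

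RefSeq promoters on GRCm38.p6 were at hand for 7 of the 10 genes, Itga4, Itgav, Itgam, Itgb1, Itgb8, Itga5 and Itgb5. The 250 bases before the start are shown for Itgam and Itgb5, whose RNA was higher in PTS + RS, and for Itga4, whose RNA levels in PTS + RS and RS overlapped, to show how these starts differ in sequence. Capitals mark GAGGAA, the core bound by the myeloid factor PU.1 and other ETS factors, and GGGCGG, the GC box bound by Sp1, on either strand (TTCCTC and CCGCCC on the other strand).
Itgam, chr7:128062390-128062639, plus strand: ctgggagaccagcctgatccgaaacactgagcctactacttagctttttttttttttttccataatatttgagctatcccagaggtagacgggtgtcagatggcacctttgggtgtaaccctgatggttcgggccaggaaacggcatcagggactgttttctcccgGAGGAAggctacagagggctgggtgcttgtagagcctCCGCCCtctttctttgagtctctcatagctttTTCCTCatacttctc
Itgb5, chr16:33829415-33829664, plus strand: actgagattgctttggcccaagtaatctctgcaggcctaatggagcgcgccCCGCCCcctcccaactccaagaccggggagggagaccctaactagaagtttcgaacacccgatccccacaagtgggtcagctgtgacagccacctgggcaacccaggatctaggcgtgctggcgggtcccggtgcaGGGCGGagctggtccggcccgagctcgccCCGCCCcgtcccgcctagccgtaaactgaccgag
Itga4, chr2:79255176-79255425, plus strand: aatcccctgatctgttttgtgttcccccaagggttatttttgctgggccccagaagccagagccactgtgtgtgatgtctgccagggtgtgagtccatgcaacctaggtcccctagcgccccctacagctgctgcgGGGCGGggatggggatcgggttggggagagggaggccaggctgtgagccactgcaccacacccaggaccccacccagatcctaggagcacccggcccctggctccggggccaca
The Itgam sequence held GAGGAA once on each strand and the GC box once, with 6 CpG and 49.6% G and C. The Itgb5 sequence held 3 GC boxes and no GAGGAA, with 18 CpG and 65.2% G and C. In the Itga4 sequence there was 1 GC box and no GAGGAA, with 6 CpG and 64.0% G and C. Of all 32851 promoters in the set, 23.3% held GAGGAA and 32.7% held the GC box in the same 250 bases, and the median was 6 CpG. Among the 7 integrin promoters, 4 held GAGGAA (Itgam, Itgav, Itgb1 and Itga5) and 5 held the GC box (Itgam, Itgb1, Itga4, Itga5 and Itgb5). A match of letters is a description, and binding was not measured.

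Counts on genes summed to between 15902013 and 21712033 per library. The tissue labels were checked against marker genes before any comparison. Markers of cerebral cortex summed to between 447 and 476 CPM in the PTS + RS and RS libraries. NaCl replicate 1, labelled cortex, held 1609 CPM of olfactory bulb markers against 21.8 to 41.3 CPM in the other 3 libraries of its table. RGFP109 replicate 1 held 1542 CPM of choroid plexus markers against 17.0 to 46.5 CPM in the others. The amygdala-labelled libraries were not higher in amygdala markers than RGFP109 replicate 1 (236 and 261 against 272 CPM, with 98.0 CPM in NaCl replicate 1), nor lower in cortex markers (670 and 589 against 508 CPM), so these sums did not bear out the amygdala label. Wfs1 alone gave 151.6 and 161.7 CPM of those amygdala sums, and 178.5 CPM in RGFP109 replicate 1. Fitted between the tissue labels, all 10 amygdala markers were above 0 (median log2 fold change 0.64). So were all 8 cortex markers (median 0.75), and none of either list passed. Among PTS + RS and RS, choroid plexus markers were uneven as well, at 1660 and 51.8 CPM in PTS + RS and 1871 and 3894 CPM in RS.

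To ask how the integrins of the brain differ when stroke is added to restraint stress, PTS + RS was compared with RS by the quasi-likelihood test of edgeR. The p-values were adjusted by Benjamini-Hochberg across all 17581 genes tested, and a gene was said to rise or fall at an adjusted p under 0.05. Itgb2, Itgam, Itgb5 and Itga6 rose in PTS + RS and no member fell. The 4 that rose stand against 2.96% of all genes tested that rose, and the 0 that fell against 0.586%. All 10 fitted changes were above 0, with a median log2 fold change of 0.98 over the members and -0.0015 over all genes tested. Both PTS + RS libraries lay above both RS libraries for 7 members, as they did for 25.7% of all genes tested, and the groups overlapped for Itga4, Itgav and Itgb8. Without PTS + RS replicate 2 the count was 8, with Itga5, Itgb1, Itgav and Itgb8 added, in a fit that called 1413 genes higher and 1278 lower and took the spread of the remaining PTS + RS library from RS.

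**Figure D1:**
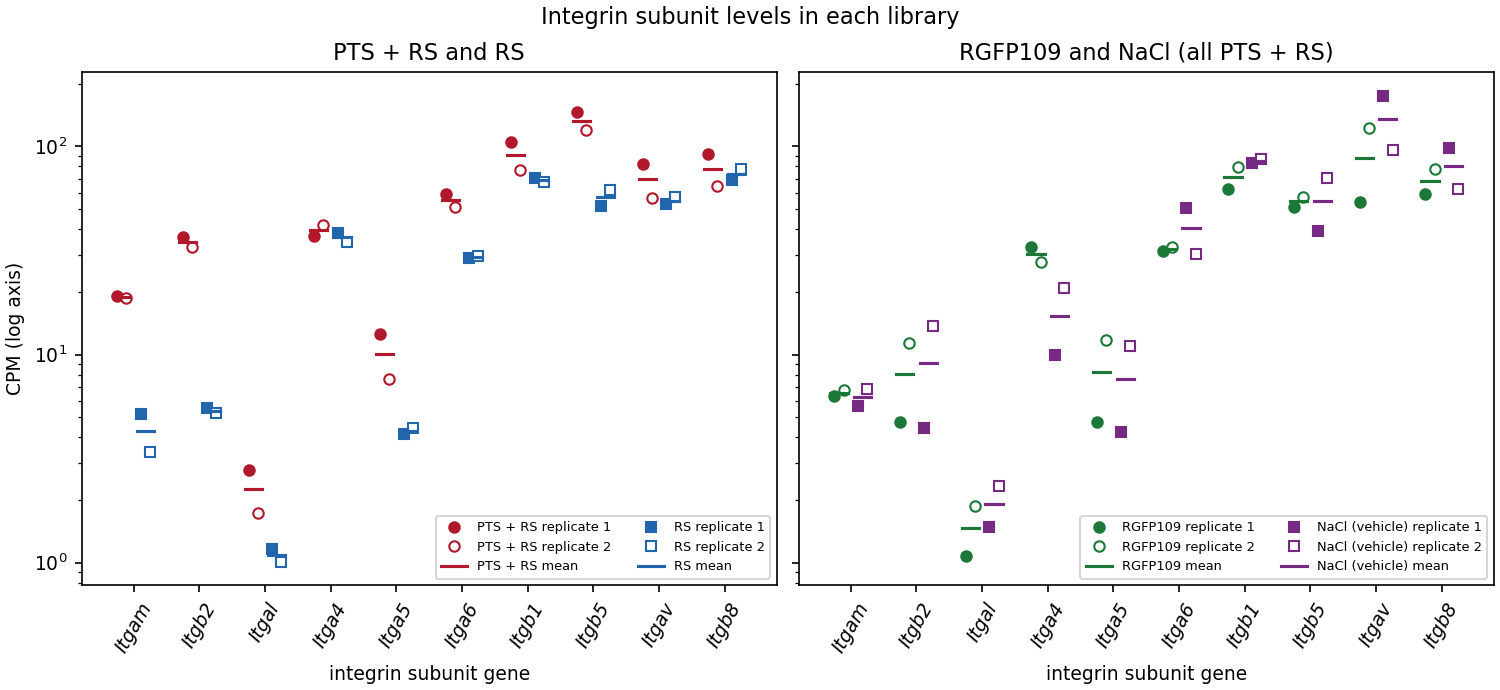
Level of each integrin gene in each library, in CPM (counts divided by the TMM-adjusted library total) on a log axis, with PTS + RS and RS on the left and RGFP109 and NaCl on the right. Points are libraries (filled: replicate 1; open: replicate 2), short lines are group means, and the PTS + RS points of Itgb2 (36.6 and 32.7 CPM) stand far above the RS points (5.52 and 5.24 CPM).

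Itgb2, the beta chain of the leukocyte integrins, changed most of the 10. It was at 36.6 and 32.7 CPM in PTS + RS and at 5.52 and 5.24 CPM in RS, the groups being far apart. Its log2 fold change was 2.68 ± 0.138 (SE), a 6.43-fold rise, with an adjusted p of 3.76e-04 in the edgeR test. Itgam, the alpha chain of complement receptor 3, was at 19.2 and 18.7 CPM in PTS + RS and at 5.19 and 3.41 CPM in RS. The PTS + RS libraries nearly coincided, and the RS libraries differed more from each other. Its log2 fold change was 2.13 ± 0.215 (SE), a 4.38-fold rise, with an adjusted p of 0.0033 in the edgeR test. Itgal, the alpha chain of LFA-1, rested on few reads, with 48 and 29 counts in PTS + RS and 21 and 16 counts in RS. The libraries did not overlap, but its log2 fold change of 1.06 had a 95% interval from 0.14 to 1.97 and did not pass in the edgeR test (adjusted p = 0.217).

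Itga6, the laminin receptor chain, was at 58.9 and 51.4 CPM in PTS + RS and at 28.9 and 29.7 CPM in RS. The log2 fold change of Itga6 was 0.91 ± 0.105 (SE), a 1.88-fold rise (adjusted p = 0.0052 in the edgeR test), and of the 4 genes that rose it alone was under a log2 fold change of 1. Itga5, the fibronectin receptor chain, was at 12.5 and 7.66 CPM in PTS + RS against 4.14 and 4.42 CPM in RS. These groups did not overlap, yet the PTS + RS libraries differed so much from each other that the log2 fold change of 1.24 ± 0.270 (SE) missed the threshold in the edgeR test (adjusted p = 0.0585). Itga5 passed in DESeq2 (adjusted p = 0.0091), in edgeR without the filter (3.69e-06) and with the replicate number, shared by name only, as a block (0.0312), and it missed in limma-voom (0.091). Itgb1, the beta chain of these receptors, was at 104.7 and 76.7 CPM in PTS + RS and at 70.6 and 67.4 CPM in RS. Its log2 fold change of 0.39 had a 95% interval from 0.06 to 0.73 and missed the threshold (adjusted p = 0.209 in the edgeR test). Itga4, the VCAM-1 receptor chain, was at 37.2 and 41.8 CPM in PTS + RS and at 38.5 and 34.8 CPM in RS. The Itga4 libraries of the groups interleaved, and the 95% interval of its log2 fold change ran from -0.15 to 0.36.

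Itgb5 rose while its partner Itgav and the other alpha v partner Itgb8 did not pass the test. Itgb5 was at 145.9 and 119.9 CPM in PTS + RS and at 51.7 and 61.9 CPM in RS. Its log2 fold change was 1.23 ± 0.126 (SE), a 2.34-fold rise, with an adjusted p of 0.0035 in the edgeR test. Itgav was at 82.5 and 56.4 CPM in PTS + RS and at 52.8 and 56.9 CPM in RS. PTS + RS replicate 1 was high and replicate 2 lay within the RS range, giving a log2 fold change of 0.34 with a 95% interval from -0.05 to 0.74. Itgb8 was at 91.8 and 64.3 CPM in PTS + RS and at 69.3 and 77.8 CPM in RS. The PTS + RS libraries of Itgb8 lay on either side of the RS libraries, and its log2 fold change of 0.09 (95% interval from -0.29 to 0.47) turned to -0.19 without PTS + RS replicate 1.

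**Figure D2:**
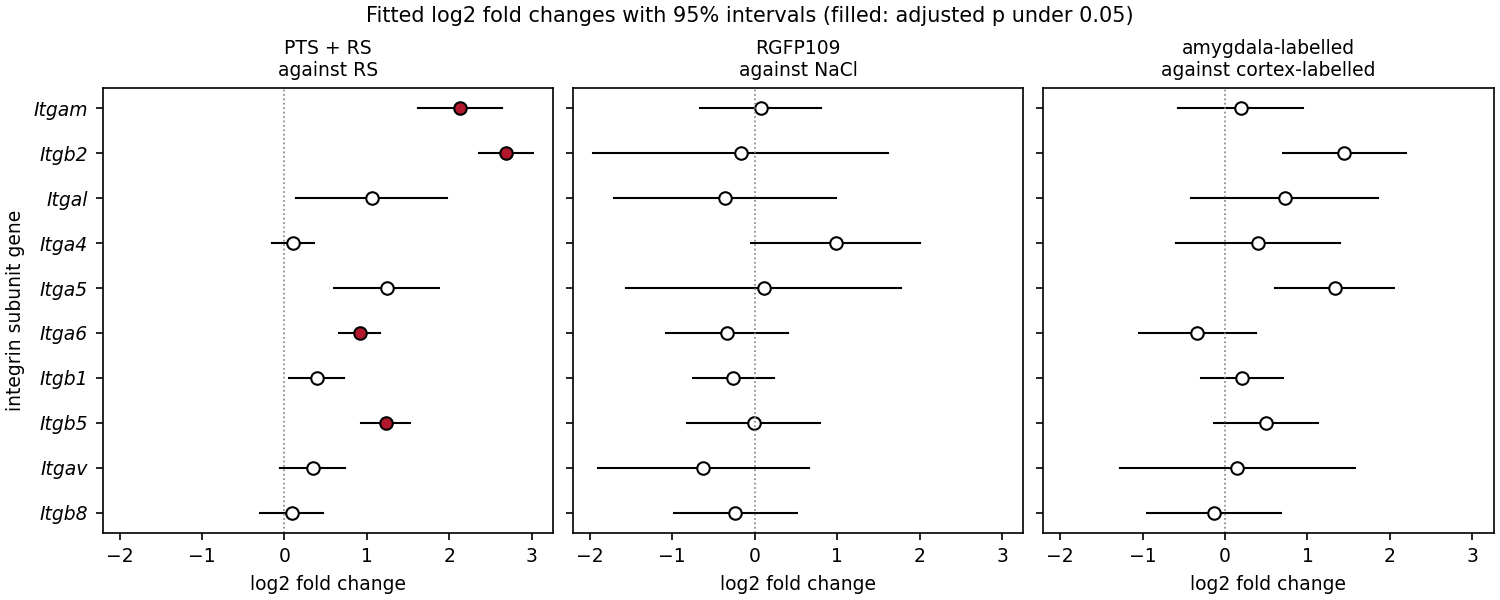
Fitted log2 fold change of each integrin gene (points) with its 95% interval (lines) in the 3 comparisons, filled points marking an adjusted p under 0.05. The 4 filled points, Itgam, Itgb2, Itga6 and Itgb5, are all in PTS + RS against RS, and intervals are widest for Itgb2 in RGFP109 against NaCl, from -1.96 to 1.62.

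Levels were ordered per length by the deposited FPKM, which divides counts by gene length and a divisor for each library. In RS the order was Itgb1 (16.8 FPKM), Itgb5 (15.9), Itgb8 (6.62), Itgav (5.08), Itga6 (3.23), Itga4 (2.61), Itgb2 (1.75), Itga5 (0.863), Itgam (0.851) and Itgal (0.164), all group means of FPKM. The ranges of Itgb1 and Itgb5 overlapped there, as did those of Itga5 and Itgam, and other neighbours were apart. In PTS + RS the order began with Itgb5 (37.1 FPKM), Itgb1 (22.1 FPKM) and Itgb2 (11.3 FPKM), so that Itgb2 was at rank 3, where it was at rank 7 in RS. Itgb8 (7.0 FPKM), Itgav (6.42 FPKM) and Itga6 (6.06 FPKM) followed with overlapping ranges between neighbours. Itgam (3.75 FPKM), Itga4 (2.81 FPKM), Itga5 (2.03 FPKM) and Itgal (0.343 FPKM) came last, each apart from the next. The place of Itgam in both orders, and with it the ranks of other genes, is uncertain because of the overlap with Gm49368 given above.

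The mixture of the 4 listed beta chains shifted with these changes. Other beta chains are not part of these shares, among them Itgb4 at a mean of 2.24 FPKM in PTS + RS and 2.03 FPKM in RS. Of the summed FPKM of Itgb1, Itgb2, Itgb5 and Itgb8, Itgb2 made up 14.6% ± 1.21 (SD, n = 2) in PTS + RS and 4.27% ± 0.36 (SD, n = 2) in RS. Itgb5 made up 48.0% ± 1.19 in PTS + RS and 38.6% ± 3.08 in RS (SD, n = 2). The shares of Itgb1 (28.3% ± 1.61 against 41.0% ± 3.28) and Itgb8 (8.98% ± 0.788 against 16.1% ± 0.561) were smaller in PTS + RS (SD, n = 2). The summed FPKM itself was 86.2 and 68.7 in PTS + RS and 39.7 and 42.5 in RS. The FPKM of Itgb1 was above both RS libraries in both PTS + RS libraries, while that of Itgb8 was above them in PTS + RS replicate 1 (8.22) and below them in replicate 2 (5.79, against 6.23 and 7.01 in RS). For every one of the 4 beta genes the shares of the PTS + RS libraries lay apart from those of the RS libraries, which is a description of 2 libraries a group with no test. Per length, Itgb5 was 5.34 and 6.43 times Itgav in PTS + RS and 2.96 and 3.29 times in RS, while Itgb8 was 1.08 and 1.11 times Itgav in PTS + RS and 1.28 and 1.33 times in RS.

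**Figure D3:**
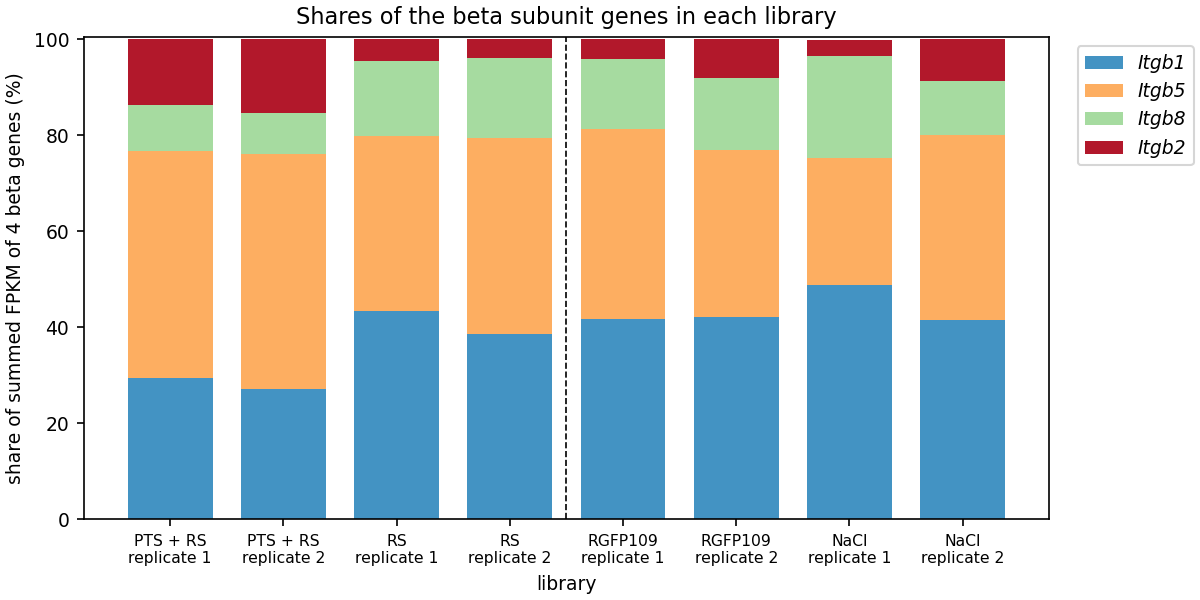
Share of each beta chain gene in the summed FPKM of Itgb1, Itgb2, Itgb5 and Itgb8, in percent, 1 bar per library, with a dashed line between the separately normalized tables. The top segment, Itgb2, is 13.8% and 15.5% in the PTS + RS libraries and 4.53% and 4.02% in the RS libraries.

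Of the 17 other integrin subunits, 13 were tested and 1 rose in PTS + RS (2.96% of all genes did), with none lower and a median log2 fold change of -0.01 (-0.0015 over all genes). The count was 3 without PTS + RS replicate 2 and 2 without the filter. This was Itgax (CD11c), another alpha partner of Itgb2, at 10.2 and 5.45 CPM in PTS + RS and at 0.386 and 0.315 CPM in RS. The log2 fold change of Itgax was 4.44 ± 0.454 (SE) with an adjusted p of 0.0035 in the edgeR test, resting on 7 and 5 counts in RS. Per length, Itgb2 reached 1.88 and 2.06 times the summed alpha chains Itgam, Itgal, Itgax and Itgad in PTS + RS, and 1.27 and 1.68 times in RS, with the limit on Itgam given above.

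Integrin ligands and related genes were described from a list of 34 symbols, of which 28 were tested. Of these, 5 rose (against 2.96% of all genes) and none fell, with a median log2 fold change of 0.21 (-0.0015 over all genes). The number changed was 13 without PTS + RS replicate 2, 8 without PTS + RS replicate 1 and 9 without the filter. Spp1, osteopontin, a ligand of alpha v and alpha 4 integrins, was at 661 and 517 CPM in PTS + RS and at 14.0 and 5.36 CPM in RS. Its log2 fold change was 5.91 ± 0.367 (SE), with an adjusted p of 5.72e-04 in the edgeR test. C3, the complement component whose cleaved form is bound by complement receptor 3, was at 21.6 and 15.8 CPM in PTS + RS and at 1.43 and 1.77 CPM in RS, a log2 fold change of 3.55 (adjusted p = 7.87e-04 in the edgeR test). Icam1, the ligand of the beta 2 integrins, was at 7.82 and 7.96 CPM in PTS + RS and at 2.15 and 2.65 CPM in RS, a log2 fold change of 1.72 (adjusted p = 0.0090 in the edgeR test). Each of these ligands was thus higher in both PTS + RS libraries than in either RS library. The other 2 genes of the list that rose were Tgfb1, the latent growth factor released through alpha v integrins, and Nrros (log2 fold changes of 1.42 and 1.01). Nrros holds latent TGF-beta on myeloid cells and is not itself an integrin ligand.

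Of 33 genes for integrin activators and adaptors, all tested, 6 rose (against 2.96% of all genes) and none fell, with a median log2 fold change of 0.19 (-0.0015 over all genes). The number changed was 14 without PTS + RS replicate 2. The largest were Fyb, the adaptor ADAP, with a log2 fold change of 2.69, and Apbb1ip, the talin recruiter RIAM, with 1.93. Fermt3, the kindlin of blood cells, followed with 1.75, and its adjusted p was 0.0032 in the edgeR test. Fermt3 was at 15.6 and 14.3 CPM in PTS + RS and at 4.75 and 4.17 CPM in RS. Syk, Cd9 and Tln1 also rose, Tln1 (talin 1, used by all integrins) by a log2 fold change of 0.52 only.

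Markers of microglia rose together with Itgb2, Itgam and Itgax, while Itgal did not pass the test. All 15 microglial markers rose in PTS + RS, with a median log2 fold change of 1.97, and their summed level was 1530 to 1789 CPM in PTS + RS and 377 to 418 CPM in RS. Border macrophages carry beta 2 integrins as well. All 6 of their markers tested were above 0, with a median log2 fold change of 1.11. The sum of the listed border macrophage markers was 16.8 to 36.1 CPM in PTS + RS against 10.6 to 12.6 CPM in RS. Of the 6, only Ms4a7 rose (log2 fold change 3.89, adjusted p = 0.0217 in the edgeR test). Its level was near the floor in RS, at 0.110 and 0.442 CPM, and was 5.49 and 2.63 CPM in PTS + RS. Of 10 astrocyte markers 5 rose, and the sum was 6790 to 7977 CPM against 4629 to 4668 CPM. None of 12 endothelial markers passed, although 11 were above 0, with a sum of 375 to 423 CPM against 341 to 360 CPM. Monocyte markers summed to 1.68 to 1.87 CPM in PTS + RS and 0.189 to 0.386 CPM in RS, and none of the 5 reached the level for testing. Neutrophil markers summed to 0.598 to 0.876 CPM in PTS + RS and 0.315 to 0.828 CPM in RS, with Ly6g and Retnlg at 0 in all 4 libraries, and lymphocyte markers to 1.98 to 3.03 CPM and 1.70 to 2.32 CPM, with Cd3g and Ms4a1 at 0. In whole tissue, more cells of a type and more RNA per cell cannot be told apart.

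Set against the microglial sum, the risers went different ways. The CPM of Itgam was 1.07% and 1.22% of the microglial sum in PTS + RS and 1.24% and 0.905% in RS, so the groups overlapped. For Itgb2 this percentage was 2.05% and 2.14% in PTS + RS and 1.32% and 1.39% in RS, apart and higher in PTS + RS. For Itgb5 it was 8.15% and 7.84% against 12.4% and 16.4%, and for Itga6 3.29% and 3.36% against 6.91% and 7.89%. Both were thus lower relative to this sum in PTS + RS. The markers rose unequally, from a log2 fold change of 0.84 for Siglech to 2.94 for Tyrobp, so the percentages depend on which markers are summed. The log2 fold changes of Itgb5 (1.23) and Itga6 (0.91) lay within that range. These percentages are descriptions without a test, and how much of each rise came from microglia was not tested.

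**Figure D4:**
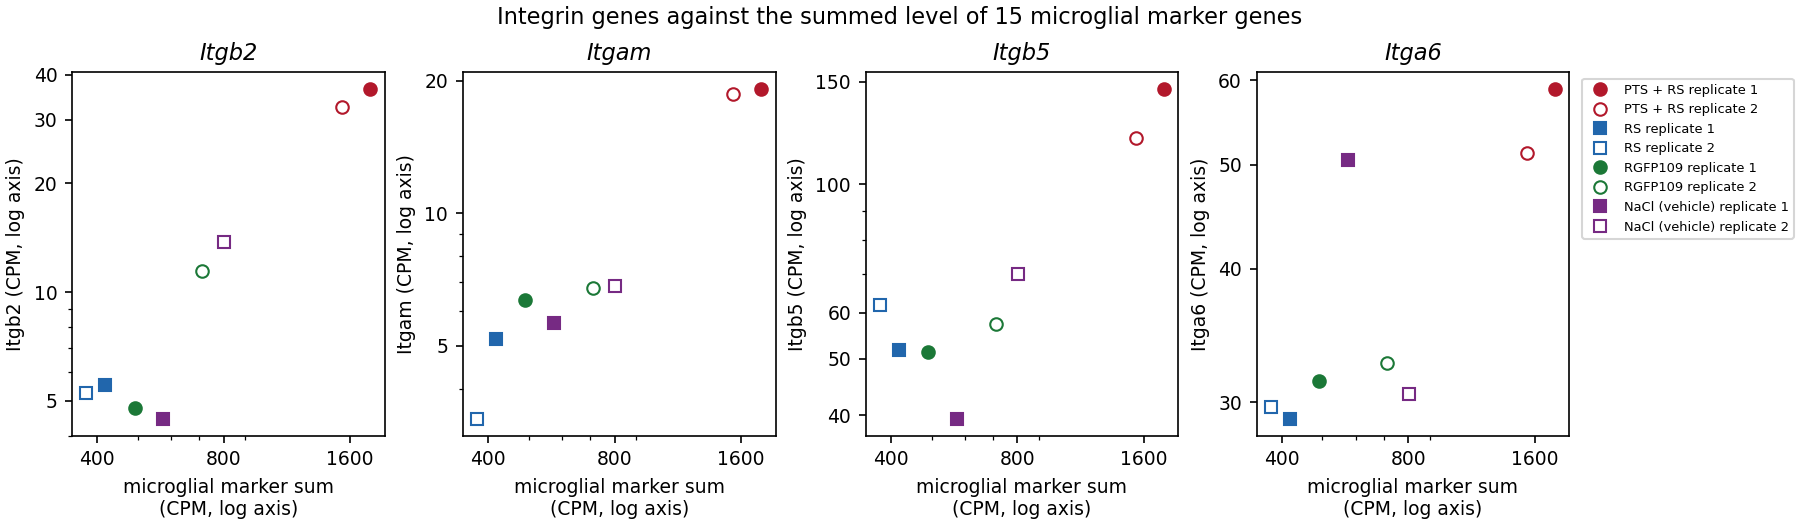
Level of Itgb2, Itgam, Itgb5 and Itga6 (CPM, log axis) against the summed level of 15 microglial markers (CPM, log axis) in all 8 libraries, 1 point per library, the tables having been normalized separately. PTS + RS libraries lie at the top right of every panel, and NaCl replicate 1, which carried olfactory bulb markers, is high for Itga6 (50.5 CPM) and lowest for Itgb5 (39.4 CPM), with 208 CPM of its marker sum from Sall1 alone.

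The genes whose pattern over the 8 libraries was most like that of a riser were found by the root mean square difference of log2 CPM, centred within each table, among 16947 genes tested in both. For Itgb2 they were C1qa (0.07), C1qc (0.09) and Tlr13 (0.10), the C1q genes being chains of the first complement component and also among the microglial markers summed above. For Itgam they were Olfml3 (0.18), Fcrls (0.19) and Pld4 (0.19), less close than those of Itgb2, and Fcrls is likewise a listed microglial marker. Itgb5 was nearest to Ctsb (0.10), Sh3tc1 (0.11) and Lgmn (0.12), of which Ctsb and Lgmn encode lysosomal proteases. Itga6 was nearest to Serpine2 (0.07), Elk3 (0.08) and St6gal1 (0.09).

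To ask what RGFP109 does after stroke and stress, it was compared with NaCl over 17565 genes tested. No member passed, nor did any other gene, the background being 0% at the adjusted threshold. At an unadjusted p under 0.05 there were 206 genes, 1.17% of those tested, and no member among them. Other tools also called no member, and the edgeR fit called genes only without NaCl replicate 2 (15 higher, 78 lower, no member). Itga4 was the only member with both RGFP109 libraries above both NaCl libraries, as 12.8% of genes were, and Itgb1 the only member with both below, as 13.8% were.

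Itga4 was at 32.8 and 27.8 CPM with RGFP109 and at 9.90 and 20.8 CPM with NaCl. Its log2 fold change of 0.98 had a 95% interval from -0.04 to 2.00, with an adjusted p of 0.9997 in the edgeR test. The low value is that of NaCl replicate 1, the library with olfactory bulb markers, and without it the log2 fold change was 0.53, while leaving out NaCl replicate 2 gave 1.62. Within replicate 1 Itga4 was 3.29-fold higher with RGFP109, and within replicate 2 it was 1.33-fold higher. Itgb1 was at 62.2 and 79.7 CPM with RGFP109 and at 83.5 and 86.5 CPM with NaCl, a log2 fold change of -0.26 with a 95% interval from -0.75 to 0.23. Both replicate numbers gave lower Itgb1 with RGFP109, at 0.745-fold and 0.921-fold of NaCl.

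For Itgb2 and Itga5 the libraries split by replicate number and not by treatment. Itgb2 was at 4.76 and 11.4 CPM with RGFP109 and at 4.44 and 13.8 CPM with NaCl, replicate 2 being high in each group. Its interval was wide, from -1.96 to 1.62 on the log2 scale, in a fit that had no term for the replicate number. The split by replicate number thus counted as spread, and this fit could not show a change of several fold in either direction. With the replicate number as a block the log2 fold change of Itgb2 was -0.094. Itgam was at 6.34 and 6.78 CPM with RGFP109 and at 5.63 and 6.85 CPM with NaCl, with an interval from -0.66 to 0.81. Itga5 was at 4.76 and 11.7 CPM with RGFP109 and at 4.27 and 11.04 CPM with NaCl, split by replicate number as Itgb2 was. Itgal ranged from 1.08 to 2.34 CPM over the 4 libraries.

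Itgav ranged widely, at 54.0 and 121.9 CPM with RGFP109 and at 175.3 and 95.9 CPM with NaCl. NaCl replicate 1 was again at the extreme, and the log2 fold change moved from -0.62 to -0.13 without it, to -0.15 without RGFP109 replicate 1, to -0.98 without NaCl replicate 2 and to -1.33 without RGFP109 replicate 2. Itgb8 was at 59.0 and 77.7 CPM with RGFP109 and at 98.4 and 62.5 CPM with NaCl. Itgb5 was at 51.3 and 57.4 CPM with RGFP109 and at 39.4 and 70.1 CPM with NaCl, the NaCl libraries lying on either side. Itga6 was at 31.4 and 32.7 CPM with RGFP109 and at 50.5 and 30.6 CPM with NaCl. For Itgav, Itgb8 and Itga6, NaCl replicate 1 held the highest level of the 4 libraries, and for Itgb5 the lowest. The part of the olfactory bulb signal in these values was not tested. Of the summed FPKM of Itgb1, Itgb2, Itgb5 and Itgb8, Itgb2 made up 6.16% ± 2.68 with RGFP109 and 6.15% ± 3.78 with NaCl (SD, n = 2).

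The NaCl libraries carry stroke and restraint stress as the PTS + RS libraries do, but their Itgb2 (4.44 and 13.8 CPM) and microglial sums (574 and 801 CPM) were below those of PTS + RS (1530 and 1789 CPM). Of the 574 CPM in NaCl replicate 1, Sall1 alone gave 208 CPM, against 23.7 to 28.2 CPM in the other 3 libraries of its table, so that the other 14 markers summed to 366 CPM there. In RS, without stroke, these 14 markers summed to 392 and 356 CPM, and Itgb2 was at 5.52 and 5.24 CPM. RGFP109 replicate 1 had 463 CPM of the 14 markers and 4.76 CPM of Itgb2. Whether the cortex-labelled RGFP109 and NaCl libraries held the rise seen in PTS + RS was not tested. These values come from separately normalized tables and are set side by side with no test. The labels of NaCl and PTS + RS differ in vehicle and, for replicate 2, in tissue.

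In the RGFP109 and NaCl libraries, the amygdala-labelled were compared with the cortex-labelled with treatment as a covariate. No gene passed, 0% of 17565, while 1607 genes (9.15%) were under an unadjusted p of 0.05, with Itgb2 and Itga5 among them. DESeq2 called 156 genes higher and 53 lower, with no member. Itgb2 had a log2 fold change of 1.45 (95% interval from 0.70 to 2.19, adjusted p = 0.373 in the edgeR test), and Itga5 of 1.33 (0.61 to 2.05, adjusted p = 0.383). Amygdala-labelled libraries were above both cortex-labelled libraries for 5 members (Itgam, Itgb2, Itgal, Itga5 and Itgb5), as they were for 21.6% of all genes. Itgax was in the same direction at 4.02 and 4.30 CPM against 0.444 and 0.796 CPM. Microglial sums were 711 and 801 CPM in the amygdala-labelled and 491 and 574 CPM in the cortex-labelled libraries (683 and 778 against 463 and 366 CPM without Sall1), and their part in this was not tested. Fits with a library left out had no treatment term, and without a cortex-labelled library a single one was left in that group. Without NaCl replicate 1 the log2 fold change was 1.413 for Itgb2, 1.268 for Itga5 and 1.026 for Itgav. Without RGFP109 replicate 1 it was 1.505 for Itgb2, 1.417 for Itga5 and -0.681 for Itgav. The direction of Itgav thus differed between these fits, while Itgb2 and Itga5 stayed above 0.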

How the data were processed

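RNA-seq counts per gene in 8 libraries were used. Per the labels and the study's methods, the authors aligned reads to GRCm38 with STAR 2.4.0 and counted reads per gene with HTSeq 0.6.1. The deposited counts were not normalized, and the deposited FPKM values are these counts divided by gene length and by 1 divisor per library, which was 0.979 to 1.05 times the total count. The labels name a directional library kit and the study's methods another kit, and the strand setting of the counting is not given in the sources used here. The authors also deposited a normalized signal (8 columns of per-library values), group means, fold changes and p-values, none of which were used. Genes of the RGFP109 table were matched to identifiers by position for all 28229 genes.

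Counts were filtered with filterByExpr, normalized by TMM and compared by edgeR's quasi-likelihood test (edgeR 4.0.16, R 4.3.3) with Benjamini-Hochberg adjustment over all genes tested. limma 3.58.1 and DESeq2 1.42.0 gave alternatives. SE was computed from the F statistic and intervals are 95%. CPM use the normalized library size, and log2 CPM a prior count of 2. The fit was tested on simulated counts with a single spread for all genes and large changes. No simulated library differed from its replicate as the RGFP109 and NaCl libraries did, so the simulation does not show what could be found there. The summaries were made in Python 3.11.15 (pandas 2.3.3), and plots in matplotlib 3.10.9.

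The members, the lists (other integrin subunits, ligands, activators and adaptors, cell and tissue markers) and the tests were chosen with earlier results of these data known. Named by rule were all 10 members, the 3 largest changes past the threshold in each integrin list, the partners of the members, and the 3 genes most like each member that rose; Tgfb1, Nrros, Syk, Cd9, Tln1, Ms4a7 and Sall1 were named after their values were seen. Older and newer symbols of Nrros were both listed, so the 34 symbols of the ligand list are 33 genes.

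Counts of replicates differed by more than sampling noise, by a chi-square per gene of 4.87 to 82.7 against about 1. Deviations of same-numbered libraries correlated at 0.0352 for PTS + RS and RS, where the number is a name only, and at 0.299 for RGFP109 and NaCl, where it goes with the tissue label. The deviation between libraries limits precision more than depth.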

Additional observations from a re-analysis of the deposited data

Results flagged for a closer look

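For 6 members the ratio of RGFP109 to NaCl pointed one way in replicate 1 (labelled cortex) and the other way in replicate 2 (labelled amygdala), and in none was the difference tested. The share of all genes that did so was not counted, so this number of members is a description and no result about integrins. The difference of the log2 ratios, replicate 1 minus replicate 2, was largest for Itgav at -2.04, its ratio being 0.308-fold in replicate 1 and 1.27-fold in replicate 2. It was -1.05 for Itgb8 (0.60-fold and 1.24-fold) and -0.78 for Itga6 (0.622-fold and 1.07-fold). The opposite order was seen for Itgb5 at 0.671 (1.30-fold and 0.818-fold), for Itgb2 at 0.366 (1.07-fold and 0.830-fold) and for Itgam at 0.184 (1.12-fold and 0.989-fold). NaCl replicate 1, which enters each ratio of replicate 1, held 1609 CPM of olfactory bulb markers, and RGFP109 replicate 1 held 1542 CPM of choroid plexus markers; their part was not tested. With 2 libraries a group, no group was large enough to look for a library far from the others.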

How the results depend on the processing

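Itgb2, Itgam, Itgb5 and Itga6 passed in PTS + RS against RS under each alternative test, filter, normalization and left-out library, except that Itga6 is under the fold limit where a log2 fold change of at least 1 was also asked (16 genes lower). Without the filter 7 members passed (1119 genes higher, 716 lower), and leaving out a library gave 4 to 8 members, 339 to 1413 genes higher and 32 to 1278 lower. The replicate block gave 5 members and 228 genes lower, where the numbers are a name only, and it changed no call in RGFP109 against NaCl. DESeq2 gave 187 genes lower. limma-trend gave 304 higher and 68 lower on log2(FPKM + 1) and 314 higher on log2(FPKM + 0.1).

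With RGFP109, leaving out a library gave 0 to 15 genes higher and 0 to 78 lower. Itgb5, at -0.01, turned to 0.046 by limma-voom, 0.044 with the replicate block, and 0.049 and 0.056 by limma-trend on log2(FPKM + 1) and log2(FPKM + 0.1), and -0.37 to 0.48 with a library left out. Directions also turned with a library left out for Itgam (-0.068 to 0.23), Itgb2 (-0.94 to 0.88), Itgal (-0.82 to 0.017), Itga5 (-0.69 to 0.96), Itga6 (-0.65 to 0.062) and Itgb8 (-0.51 to 0.12), and for Itgb8 in PTS + RS against RS (-0.19 to 0.32).

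For the tissue labels, no filter gave 187 genes higher and 53 lower, and DESeq2 156 and 53. Leaving out a library gave 0 to 7 members, 0 to 2831 genes higher and 0 to 2552 lower, and turned Itga4 (-0.42 to 1.30), Itga6 (-0.67 to 0.023), Itgb1 (-0.0025 to 0.43), Itgav (-0.68 to 1.03) and Itgb8 (-0.48 to 0.26); Itgav was also at -0.074 without the treatment term. Where a left-out library left a single library in a group, that library was taken to vary like the others. Chosen after seeing the data, the microglial sum without Sall1 was 366 against 574 CPM in NaCl replicate 1. The causes were not tested. At 2 libraries a group, the spread between libraries sets what can be seen, and Itgal, at 16 to 48 counts, is also limited by depth.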

Other observations

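Partners of the members outside the list were described as well. Itgb3, a beta chain of alpha v, was at 6.01 and 3.77 CPM in PTS + RS and at 2.43 and 3.28 CPM in RS, with a log2 fold change of 0.78 that did not pass in the edgeR test (adjusted p = 0.256). Itgb4, which pairs with alpha 6 in epithelia and endothelium, was at 17.3 and 14.4 CPM in PTS + RS and at 15.3 and 13.2 CPM in RS (log2 fold change 0.15). In NaCl replicate 1 Itgb4 was at 21.2 CPM against 10.3 to 12.4 CPM in the other 3 libraries of that table. Itgb7, the lymphocyte partner of alpha 4, held 13 and 10 counts in PTS + RS and 12 and 4 counts in RS. Itgb6 held 2 to 5 counts in every PTS + RS and RS library and was not tested. Itgad, an alpha partner of Itgb2, held 1 and 5 counts in PTS + RS and 11 and 9 counts in RS, too few to test, and 24 and 18 counts in the amygdala-labelled libraries against 1 and 4 counts in the cortex-labelled.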
